A study of Mus musculus with 2 samples.

Results

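The glycolysis genes described here are 10 of the 27998 genes in the count tables, chosen by name: the glucose transporter *Slc2a1*, the enzymes *Gpi1*, *Aldoa*, *Tpi1*, *Gapdh*, *Pgk1*, *Pgam1*, *Eno1* and *Pkm* along the pathway, and *Ldha* at its end. All 10 were found in the tables by their gene symbol. Glycolysis splits glucose into pyruvate in the cytosol and yields ATP and NADH without oxygen, and lactate dehydrogenase then turns pyruvate into lactate and restores NAD+. Neutrophils are known for drawing most of their ATP from this pathway, and T and B lymphocytes are known to raise it when they are activated and divide. The enzymes of the steps that commit glucose to the pathway, hexokinase and phosphofructokinase, are not among the 10 and were read from a wider list of 60 genes.

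The question was how these transcripts were spread over the leukocytes of the brain and whether the mutant differed from its control. CD45+ cells, the surface mark of leukocytes, were sorted from hemi-brains of C57Bl/6 mice at postnatal day 21, none of them treated. The control was a WT (galc+/+) littermate pool and the mutant a twi (twitcher, galc-/-) pool, twi being the mouse model of globoid cell leukodystrophy, in which the lysosomal enzyme galactosylceramidase is lacking in every cell. Each pool held 2 to 3 animals and gave 1 single-cell 3′ RNA library, so that no difference between genotypes had a replicate check, no test could be made, and the intervals below (exact, 95%) cover the counting of molecules only. A unique molecular identifier (UMI) stands for 1 captured molecule, and levels are given as UMIs per 1000000 UMIs of the same cells (CPM). A level does not need scaling by gene length here, but genes differ in how well their 3′ end is captured, so the levels of different genes are not amounts of enzyme.

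After barcodes with over 15% mitochondrial UMIs were left out, 1271 WT cells (3741477 UMIs, median 2222 per cell) and 1207 twi cells (4791200 UMIs, median 3182) remained, and the libraries shared 0 barcodes. *Galc* itself gave 4 UMIs in WT and 8 in twi, and a count of 3′ ends does not read the twi mutation. Cells with *Xist* and no Y-linked transcript numbered 548 in twi and 0 in WT, so genotype and sex were partly confounded and cannot be told apart in a comparison of all cells. Free RNA was present in both libraries: *S100a8*, a neutrophil transcript, was at 614 CPM in WT and 186 CPM in twi non-cycling B cells. Cell classes were set by UMIs of marker genes, so the levels of those genes follow from the gates and are no check on them. In WT and twi, *Cd79a* was at 5560 and 5128 CPM in non-cycling B cells and *Ngp* at 30172 and 29542 CPM in neutrophils. *Ncr1* was at 983 and 1399 CPM in NK cells.

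The promoters of 4 of the genes are printed here. They were picked on the level in dividing over resting B cells of twi alone, described further on. The interval lay above 1 for *Gapdh*, *Pgk1* and *Ldha* and below it for *Aldoa*. For *Pgk1* it rests on 9 UMIs in cycling and 10 in non-cycling B cells, too few for the minimum of 25 used below. In WT the interval of *Ldha* held 1, and that of *Tpi1*, whose promoter is not printed, lay above 1. Each run holds the 250 bases before a RefSeq transcript start (GRCm38.p6) in the direction of transcription, and capitals mark ACGTG, the core letters of the hypoxia response element, on either strand. *Gapdh* lies at chr6:125165774-125166023 on the minus strand and *Pgk1* at chrX:106186850-106187099 on the plus strand. The window of the first listed start of *Ldha* is chr7:46845554-46845803 on the plus strand. That of the second listed start of *Aldoa* is chr7:126799255-126799504 on the minus strand. The windows of *Ldha* start 2 and *Aldoa* start 1, not printed, held 0 cores. That of *Aldoa* start 3, also not printed, held 1 at 202 bases before the start.
Gapdh: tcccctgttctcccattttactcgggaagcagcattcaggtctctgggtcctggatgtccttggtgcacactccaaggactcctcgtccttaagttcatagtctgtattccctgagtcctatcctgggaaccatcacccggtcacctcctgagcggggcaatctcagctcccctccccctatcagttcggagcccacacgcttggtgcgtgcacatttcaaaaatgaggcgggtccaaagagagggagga
Pgk1: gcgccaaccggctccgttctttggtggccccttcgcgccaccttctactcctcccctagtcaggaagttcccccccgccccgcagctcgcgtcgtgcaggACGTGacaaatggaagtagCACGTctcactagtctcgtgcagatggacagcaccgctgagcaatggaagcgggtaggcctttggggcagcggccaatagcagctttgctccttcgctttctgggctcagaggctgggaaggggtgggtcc
Ldha: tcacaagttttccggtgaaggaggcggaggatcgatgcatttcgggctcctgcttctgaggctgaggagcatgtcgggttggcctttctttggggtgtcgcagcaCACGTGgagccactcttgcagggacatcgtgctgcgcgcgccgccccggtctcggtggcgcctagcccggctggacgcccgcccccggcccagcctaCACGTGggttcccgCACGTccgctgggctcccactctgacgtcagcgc
Aldoa: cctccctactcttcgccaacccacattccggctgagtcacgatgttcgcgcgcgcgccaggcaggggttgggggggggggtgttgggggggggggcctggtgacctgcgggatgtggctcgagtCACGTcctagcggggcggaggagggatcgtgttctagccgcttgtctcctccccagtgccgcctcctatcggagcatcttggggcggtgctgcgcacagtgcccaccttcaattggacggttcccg
The core stood at 150 and 131 bases before the start of *Pgk1*, at 126 bases before that of *Aldoa* and nowhere in the *Gapdh* window. In *Ldha* the palindrome CACGTG, which is also the E-box bound by Myc proteins and reads as the core on both strands, began 145 and 48 bases before the start, and a further core began 34 bases before it. At least 1 listed start held the core in 6 of the 10 genes (also *Pkm*, *Pgam1* and *Slc2a1*), against 18.5% of the 27025 genes with a listed promoter, and CACGTG was found in *Ldha* alone, against 6.86% of genes. A match of letters is a description and not a bound site, and 3′ counts do not show which start was used.

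The 10 genes together gave 11882 UMIs in WT, 0.318% of all UMIs, and 15492 in twi, 0.323%. *Gapdh* alone made up 24.7% of these UMIs in WT and 25.6% in twi, *Pkm* 16.9% and 15.5%, and *Aldoa*, *Eno1*, *Ldha* and *Gpi1* between 8.98% and 13.6% each. *Pgam1*, *Tpi1*, *Pgk1* and *Slc2a1* were the sparse members, with *Slc2a1* at 0.513% and 0.704%. A UMI of *Gapdh* was seen in 64.2% of WT and 76.0% of twi cells, and when each cell was thinned to 1000 UMIs the shares were 41.5% and 45.8%. For *Slc2a1* the thinned shares were 1.89% and 2.36%, near the floor of what such cells can show. No class was expected to lack these transcripts, so no background share from free RNA could be set beside them.

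Of the classes plotted below, neutrophils held the highest level of glycolysis transcripts and non-cycling B cells the lowest in both libraries. The summed level of the 10 genes was 4770.3 CPM in WT neutrophils (4593 to 4952, 211 cells) and 5235 CPM in twi neutrophils (4901 to 5585, 57 cells). Monocytes followed at 4359 CPM in 24 WT cells and 4194 CPM in 37 twi cells, and the intervals of monocytes and neutrophils overlapped in WT but not in twi. In twi, neutrophils and the 15 C1q macrophages had overlapping intervals. Non-cycling B cells were lowest at 1787 CPM in 529 WT cells and 1819 CPM in 152 twi cells. Between them lay twi cycling CD8 T cells (4561 CPM), CD4 T cells (3100.3 and 3214 CPM), T cells of no clear subset (2812 and 3152), NK cells (2931 and 2847), effector CD8 T cells (2601 and 3038) and naive CD8 T cells (2207 and 2135), in the order WT and twi. In WT the neighbours CD4 T, NK and unassigned T cells had overlapping intervals, as had naive CD8 T and cycling B cells. The WT intervals of non-cycling B cells (1706 to 1870) and of the 19 C1q macrophages (1902 CPM, 1533 to 2333) overlapped too, so the lowest place in WT is not settled between them. Cycling cells of another single lineage (T cells outside the CD8 gate, NK cells, neutrophils, monocytes or C1q macrophages) formed a mixed cycling group. It was not plotted and stood at 5396 CPM in WT (5143 to 5657), above neutrophils, and at 4653 CPM in twi, below them. In the WT group *Ngp*, a transcript of maturing neutrophils, was at 19106 CPM.

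**Figure D1:**
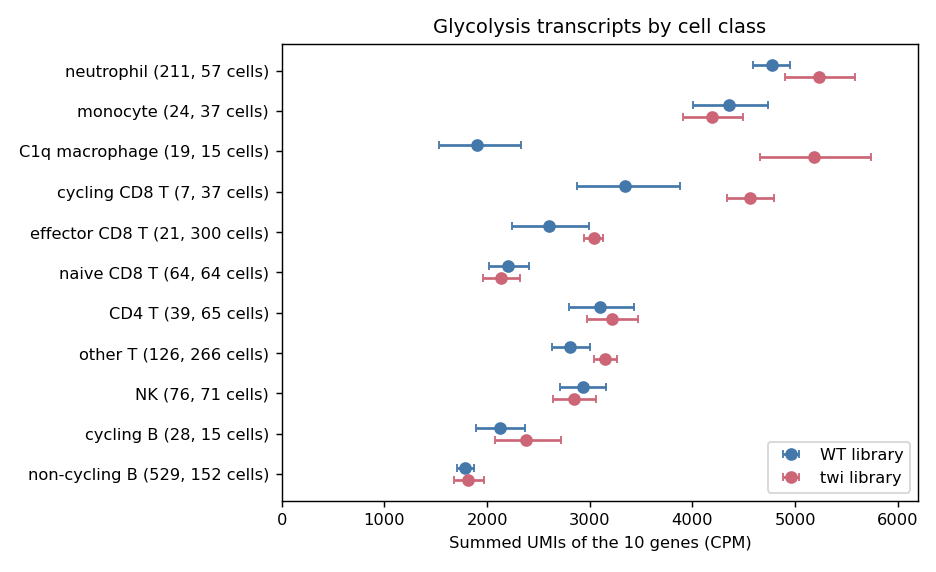
Summed level of the 10 glycolysis genes (x axis, CPM) in 11 cell classes (y axis, with WT and twi cell numbers), 1 point per library with its exact 95% counting interval. Neutrophils stand at 4770.3 and 5235 CPM and non-cycling B cells at 1787 and 1819 CPM, while C1q macrophages part at 1902 and 5181 CPM.

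Single cells spread widely around these levels. The 10 genes took a median of 0.439% of a WT neutrophil's UMIs and 0.536% of a twi neutrophil's, with quartiles of 0.305% to 0.570% and of 0.353% to 0.626%. In non-cycling B cells the medians were 0.162% and 0.174%, and the upper quartiles, 0.239% and 0.235%, lay below the lower quartiles of neutrophils of both libraries. Cycling B cells had medians of 0.164% and 0.166%, close to those of non-cycling B cells, although their pooled level was higher. Effector CD8 T cells had medians of 0.223% in WT and 0.267% in twi with overlapping quartiles.

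**Figure D2:**
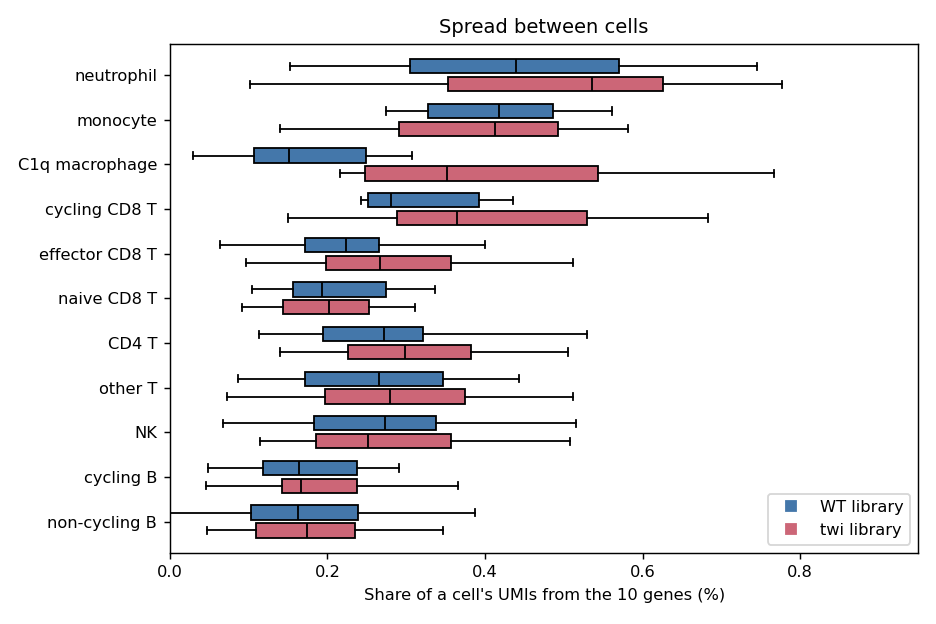
Share of each cell's UMIs that came from the 10 genes (x axis, %) by class (y axis), with WT boxes in blue and twi boxes in red. Boxes span the quartiles around the median line, whiskers reach the outermost cells between percentiles 5 and 95, and neutrophil boxes (medians 0.439% and 0.536%) lie above those of non-cycling B cells (0.162% and 0.174%).

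The neutrophil level was compared with that of non-cycling B cells, the class with the most WT cells. The sum was 2.67 times higher in WT (2.52 to 2.83) and 2.88 times higher in twi (2.59 to 3.19). In WT, 8 of the 9 genes with at least 25 UMIs in the pair of classes were higher by 1.5-fold or more, while 13.9% of all 5969 genes tested were. In twi it was 7 of 8 genes against 15.9% of 2738. The median log2 ratio of the members was 1.57 in WT, where that of all genes was -1.53. *S100a8* alone was at 203781 CPM in WT neutrophils. With immunoglobulin genes, *S100a8* and *S100a9* taken out of the totals, the ratios were 3.94 and 4.13. Monocytes stood above non-cycling B cells in the same way, with 7 of 9 genes past 1.5-fold in WT against 17.3% of all genes, and 8 of 8 in twi against 22.1%.

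Among single genes, *Pkm*, pyruvate kinase of the last ATP-yielding step, was at 970 CPM in WT and 1237 CPM in twi neutrophils and at 287 and 297 CPM in non-cycling B cells. *Gpi1*, which turns glucose 6-phosphate into fructose 6-phosphate, was at 593 and 699 CPM in neutrophils and at 192 and 171 CPM in non-cycling B cells. *Tpi1*, which interconverts the triose phosphates, was the exception among the genes with at least 25 UMIs: it was at 79.9 and 80.2 CPM in neutrophils against 84.5 and 111 CPM in B cells, with ratios of 0.946 (0.647 to 1.37) and 0.723 (0.361 to 1.37). *Ldha* was higher in neutrophils than in monocytes in both libraries, by 1.55 times (1.10 to 2.24) in WT and 1.46 times (1.02 to 2.1) in twi, and *Gpi1* by 1.45 and 1.84 times. In twi, *Tpi1* (80.2 against 168 CPM, 0.476, 0.235 to 0.918) and *Pgam1* (166 against 310.5 CPM, 0.535, 0.331 to 0.848) were lower in neutrophils than in monocytes, and in WT their intervals held 1.

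Within neutrophils, cells with secondary granule transcripts (at least 6 UMIs of *Ngp*, *Camp* and *Ltf*, 138 WT and 27 twi cells) held more *Ldha* than the rest, by 1.79 times (1.22 to 2.74) in WT and 2.65 times (1.39 to 5.58) in twi. Their *Gpi1* was 1.59 times (1.15 to 2.25) and 1.53 times (0.995 to 2.43) that of other neutrophils, while *Pkm* was at 0.823 (0.671 to 1.02) and 0.875 (0.656 to 1.18). The sum was 1.13 and 1.24 times higher in the granule-transcript cells.

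In the wider list, genes at the steps next to the 10 differed in both directions between neutrophils and non-cycling B cells, and some are named here. *Slc2a3*, the high-affinity glucose transporter, was at 346 CPM in WT and 298 CPM in twi neutrophils and at 9.71 and 3.0 CPM in non-cycling B cells. *Slc16a3*, a lactate exporter, was at 337 and 281 CPM in neutrophils and at most at 99.6 CPM in the other classes plotted. *Hk3*, a hexokinase isoenzyme, was at 199.8 and 166 CPM, and the pentose phosphate enzymes *Taldo1*, *Tkt* and *Pgd* were at 1213, 761 and 509 CPM in WT neutrophils. *Pdha1* and *Pdhb*, subunits of pyruvate dehydrogenase, were low there at 17.4 and 15.6 CPM in WT against 105 and 94.2 CPM in non-cycling B cells. Of the 36 listed genes with enough UMIs in WT, 12 were higher and 17 lower in neutrophils by 1.5-fold or more, while 13.9% of all genes tested were higher and 71.9% lower. By group, transport had 2 higher and 2 lower, hexokinases 2 and 0, and phosphofructokinases with their regulators 1 and 2. Pyruvate entry had 2 higher and 5 lower, and the pentose phosphate group 4 and 3. Isoenzymes of the members had 1 and 1, and the hypoxia group 0 and 4.

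Each gene had its own order over the classes. Over the 19 class and library pools of at least 20 cells, the log2 levels of *Pkm* followed the mean of the other 9 genes with r = 0.849, those of *Gpi1* with 0.796, *Gapdh* with 0.780 and *Eno1* with 0.738. For *Tpi1* r was 0.118 and for *Pgk1* -0.014. These pools share 2 libraries and their depth, and the values are a description. The ranges of single genes that follow are over the same 19 pools. Those pools leave out smaller classes, the mixed cycling group, barcodes passing 2 lineage gates and cells passing none.

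**Figure D3:**
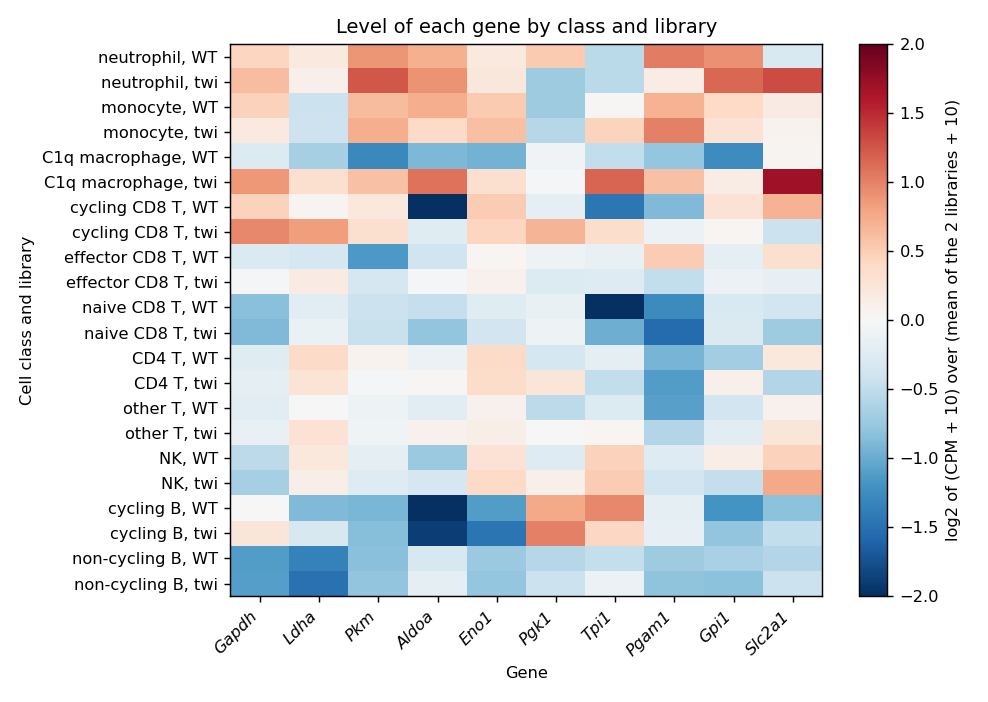
Level of each gene (x axis) in each class and library (y axis), as log2 of CPM plus 10 over the mean of the all-cell levels of both libraries plus 10, with colours limited to 2 in either direction. *Aldoa* is dark blue in cycling B cells (61.2 and 109 CPM). It is so in WT cycling CD8 T cells too, but from 3 UMIs in 7 cells (56.7 CPM), while the 37 twi ones are at 363 CPM. *Tpi1* does not follow the neutrophil rows of most other genes in either library. *Pgk1* departs from them in twi neutrophils alone, at 22.9 CPM from 4 UMIs, and not in WT ones (39 UMIs).

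*Slc2a1*, which encodes the basal glucose transporter GLUT1 (ENSMUSG00000028645, chr4:119108711-119137983, plus strand), was the rarest of the 10 with 61 UMIs in WT and 109 in twi. Its level was 16.3 CPM in WT and 22.8 CPM in twi over all cells, and its highest level in a class of at least 20 cells was 63.0 CPM in twi neutrophils. *Gpi1* (ENSMUSG00000036427, chr7:34201330-34230336, minus strand) ranged from 129 CPM in WT cycling B cells to 699 CPM in twi neutrophils. *Aldoa*, the aldolase that cleaves fructose 1,6-bisphosphate (ENSMUSG00000030695, chr7:126795234-126800751, minus strand), had the widest range over these pools, 13.3 times between WT cycling B cells at 61.2 CPM and twi neutrophils at 813 CPM. *Tpi1* (ENSMUSG00000023456, chr6:124810586-124814296, minus strand) ranged 11.4 times, from 21.5 CPM in WT naive CD8 T cells to 245 CPM in WT cycling B cells. Coordinates of the genes are those of GENCODE on GRCm38, the assembly also called mm10, and all 10 are protein coding.

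*Gapdh*, the dehydrogenase that yields NADH and a common reference gene (ENSMUSG00000057666, chr6:125161715-125166467, minus strand), ranged 4.30 times, from 367 CPM in WT non-cycling B cells to 1577 CPM in twi cycling CD8 T cells. *Pgk1*, which makes ATP from 1,3-bisphosphoglycerate (ENSMUSG00000062070, chrX:106187100-106203699, plus strand), ranged from 22.9 CPM in twi neutrophils to 81.6 CPM in WT cycling B cells, and was at 98.3 CPM in the 15 twi cycling B cells. *Pgam1*, the phosphoglycerate mutase (ENSMUSG00000011752, chr19:41911923-41918660, plus strand), ranged from 44.5 CPM in twi naive CD8 T cells to 311 CPM in WT neutrophils. *Eno1*, enolase (ENSMUSG00000063524, chr4:150236721-150248879, plus strand), had the narrowest range at 3.41 times, from 184 CPM in WT cycling B cells to 626 CPM in twi monocytes. *Pkm* (ENSMUSG00000032294, chr9:59656368-59679375, plus strand) ranged from 229 CPM in WT effector CD8 T cells to 1237 CPM in twi neutrophils, and its spliced isoforms are not told apart by 3′ counts. *Ldha* (ENSMUSG00000063229, chr7:46841475-46855627, plus strand) ranged from 135 CPM in twi non-cycling B cells to 718 CPM in twi cycling CD8 T cells. Reads that match a gene and a near-identical copy alike can be lost in counting, and how many were lost was not measured. The copy *Eno1b* itself held 60 UMIs in WT and 104 in twi, and *Pgk1-rs7* 13 and 8. Outside the pools, the mixed cycling group held *Gapdh* at 1474 and 1647 CPM, *Pgk1* at 84.8 and 57.0 CPM and *Tpi1* at 207 and 304 CPM in WT and twi.

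By the same likeness over 2316 genes with at least 500 UMIs, the genes whose levels most resembled the sum of the 10 were *S100a6*, *Mrpl33*, *Lgals3*, *Gsr* and *Flna*, with r between 0.857 and 0.890 over 19 pools. *S100a6*, a calcium-binding protein, ranged up to 4966 CPM, and *Gsr*, glutathione reductase, from 3.0 to 733 CPM.

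Dividing lymphocytes were compared with resting ones next. Cycling B cells (28 in WT and 15 in twi, with *Mki67* at 694 and 426 CPM) held a sum of 2122 CPM in WT and 2381 CPM in twi, 1.19 times (1.05 to 1.34) and 1.31 times (1.12 to 1.53) the level of non-cycling B cells. The sum hid genes that differed in opposite directions. *Gapdh* was at 803 and 950 CPM in cycling B cells and at 367 and 372 CPM in non-cycling ones, 2.19 times (1.76 to 2.69) and 2.56 times (1.92 to 3.39) higher. *Pgk1* was 3.11 times (1.44 to 6.35) and 3.28 times (1.18 to 8.98) higher, from 12 UMIs in WT and 9 in twi cycling cells. With 10 UMIs in twi non-cycling B cells, its twi ratio had too few for the minimum of 25.

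*Tpi1* was 2.90 times higher in WT cycling B cells (1.91 to 4.32) and 1.48 times in twi (0.753 to 2.76). *Ldha* was 1.41 times higher in WT (0.926 to 2.08) and 2.35 times in twi (1.42 to 3.83). *Aldoa* was lower in cycling B cells of both libraries, at 61.2 against 345 CPM in WT and 109 against 378 CPM in twi, with ratios of 0.178 (0.0805 to 0.341) and 0.289 (0.135 to 0.550). *Pkm* and *Gpi1* had intervals that held 1 in both libraries, and *Eno1* was at 0.769 (0.496 to 1.15) and 0.607 (0.310 to 1.10). In WT, 3 of the 9 genes with enough UMIs were higher by 1.5-fold or more and 1 lower, against 24.6% and 30.2% of 5569 genes. In twi it was 3 higher and 2 lower of 8, against 24.4% and 29.2% of 2672.

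Without *Gapdh* the summed ratio of cycling to non-cycling B cells was 0.930 (0.796 to 1.08) in WT and 0.988 (0.808 to 1.20) in twi, so the higher sum rested on that gene. Of the 28 WT cycling B cells, 8 also carried UMIs of a second lineage, as did 2 of the 15 in twi. Without such barcodes the sum was at 0.981 (0.831 to 1.15) in WT and 1.22 (1.02 to 1.45) in twi, *Gapdh* at 1.53 (1.12 to 2.06) and 2.40 (1.76 to 3.25), and *Aldoa* at 0.278 (0.126 to 0.534) and 0.304 (0.136 to 0.595). *Pgk1* was then at 1.81 (0.544 to 4.8) in WT and 3.75 (1.26 to 11) in twi. Markers of stage moved with cycling: the mature B transcript *Ms4a1* was at 129 and 218 CPM in cycling against 2635 and 2886 CPM in other B cells, and the pre-B transcript *Vpreb1* had a UMI in 14.3% of WT and 40% of twi cycling cells against 3.21% and 1.97% of the others. Their part in these differences was not tested. Against the 21 WT non-cycling B cells with *Vpreb1* or *Igll1*, a comparison chosen after the data were seen, *Aldoa* was at 0.196 (0.0730 to 0.507) and *Gapdh* at 2.06 (1.20 to 3.79).

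**Figure D4:**
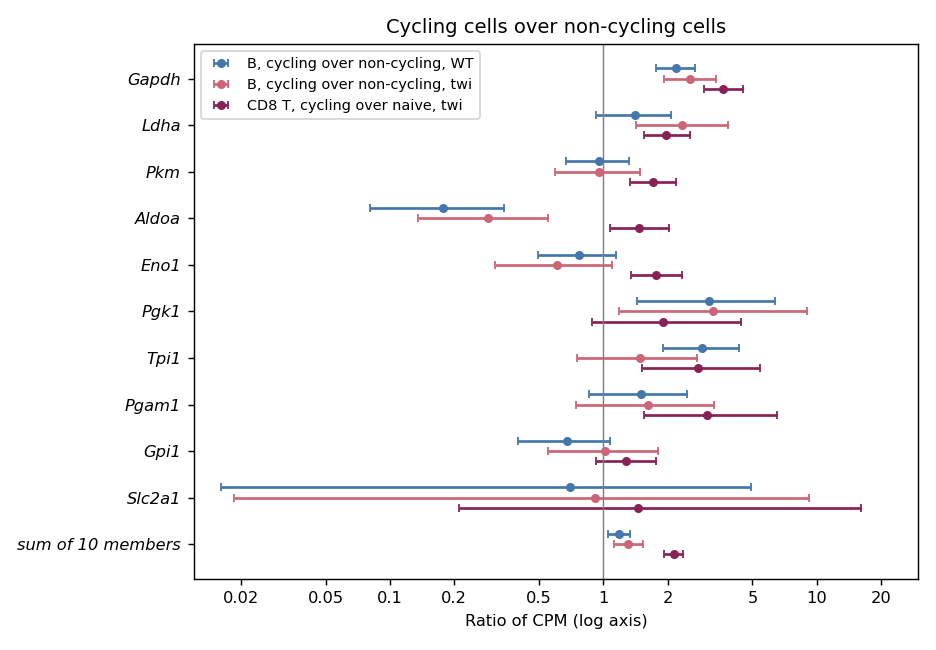
Ratio of CPM in cycling over resting cells (x axis, log scale) for each gene and the sum (y axis), with exact 95% counting intervals: B cells of WT (blue) and twi (red), and twi CD8 T cells over naive CD8 T cells (purple). *Gapdh* lies right of 1 in all 3 comparisons, at 2.19, 2.56 and 3.65, while *Aldoa* lies left of 1 in B cells (0.178 and 0.289) and right of it in CD8 T cells (1.47). The classes compared also differ in stage (B cells) or in effector state (CD8 T cells), whose part was not tested.

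In the wider list, *Slc16a1*, a lactate and pyruvate carrier, stood out in cycling B cells at 258 CPM in WT and 240.3 CPM in twi against 26.2 and 8.99 CPM in non-cycling ones. *Pgls*, lactonase of the pentose phosphate pathway, was at 1095 and 1103 CPM against 485 and 453 CPM. Of the listed genes with enough UMIs, 4 of 24 were higher and 7 lower in WT, and 8 of 16 were higher and 2 lower in twi, beside the 24.6% and 30.2% of all genes in WT and the 24.4% and 29.2% in twi given above.

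Cycling CD8 T cells of twi (37 cells, *Mki67* at 281 CPM) held 4561 CPM of the 10 genes against 2135 CPM in 64 naive CD8 T cells, 2.14 times more (1.93 to 2.36). These classes differed in state as well as in cycling. The effector list was at 8566 CPM in cycling and 1245 CPM in naive cells, and the naive list at 298 and 3198 CPM. The part of state in the ratios was not tested. Of the 9 genes with enough UMIs, 7 were higher by 1.5-fold or more, against 33.8% of 2964 genes. *Gapdh* was at 1577 against 433 CPM (3.65 times, 2.96 to 4.53), *Pgam1* at 136 against 44.5 CPM (3.05 times, 1.56 to 6.54) and *Tpi1* at 157 against 56.6 CPM (2.77 times, 1.51 to 5.4). *Ldha*, *Eno1* and *Pkm* were 1.97, 1.77 and 1.71 times higher. *Aldoa* was at 363 against 247 CPM, 1.47 times (1.08 to 2.04), unlike its lower level in cycling B cells, though the ratios compare different lineages and their difference was not tested.

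Against effector CD8 T cells of the same library the cycling cells were 1.5 times higher (1.42 to 1.59), with 5 of 10 genes past 1.5-fold against 20.1% of 6015. *Pgk1* was 2.21 times (1.31 to 3.64), *Gapdh* 2.0 times (1.80 to 2.23), *Ldha* 1.60 times (1.38 to 1.86), *Pkm* 1.59 times and *Tpi1* 1.57 times higher, while *Aldoa* was at 0.861 (0.703 to 1.05). Of the 37 cycling cells 10 carried UMIs of a second lineage, and without them the sum over naive cells was 1.82 times (1.62 to 2.04), with 4 of 8 genes past 1.5-fold against 31.1% of 2151. The WT library had 7 cycling CD8 T cells, 5 of them with second-lineage UMIs, and their level of 3346 CPM is given for completeness.

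Effector CD8 T cells, gated on transcripts such as *Gzmb* and chemokines, held 3038 CPM in twi (300 cells), 1.42 times (1.30 to 1.56) the naive level. *Gapdh* was 1.82 times (1.49 to 2.24), *Aldoa* 1.71 times (1.31 to 2.27), *Tpi1* 1.77 times (1.02 to 3.32) and *Pgam1* 2.30 times (1.24 to 4.71) higher, and *Ldha* was at 1.23 (0.985 to 1.55) and *Pkm* at 1.08 (0.864 to 1.36). That made 4 of 9 genes past 1.5-fold, against 25.2% of 5719. In WT the ratio was 1.18 (0.993 to 1.39) from 21 effector cells, with 1 of 7 genes past 1.5-fold upward, *Pgam1*, against 18.1% of 1397, and 1 downward, *Pkm* (229 against 383 CPM), against 13.8%. *Pfkp*, the platelet-type phosphofructokinase subunit found in lymphocytes, was at 122 CPM in twi effector and 174 CPM in twi cycling CD8 T cells, against 60.7 CPM in naive ones.

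CD4 T cells stood above naive CD8 T cells in both libraries, by 1.40 times (1.23 to 1.61) in WT and 1.51 times (1.34 to 1.69) in twi, and so did NK cells, by 1.33 times in each (1.18 to 1.49 and 1.19 to 1.5). In CD4 T cells 3 of 6 genes in WT and 3 of 7 in twi passed 1.5-fold upward, against 17.8% of 1636 and 18.6% of 2219. In NK cells 2 of 8 and 3 of 8 did, against 37.9% of 2362 and 32.2% of 2600. The median log2 ratio in NK cells was 0.436 and 0.348 for the members, and 0.356 and 0.250 for all genes. The gene of largest ratio in NK cells was *Tpi1* in WT, at 170.3 against 21.5 CPM (7.92 times, 3.12 to 25.7, from 39 and 5 UMIs), and it was 3.10 times (1.67 to 6.12) higher in twi.

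Between genotypes the sum over all cells was 3176 CPM in WT and 3233 CPM in twi, a ratio of 1.02 (0.994 to 1.04). None of the 10 genes reached 1.5-fold in either direction, while 11.2% of 10267 genes were higher in twi by that much and 15.1% lower. *Ldha* was at 365 CPM in WT and 431 CPM in twi (1.18 times, 1.10 to 1.27), *Eno1* at 377 and 439 CPM (1.16 times, 1.09 to 1.245) and *Gapdh* at 783 and 829 CPM (1.06 times, 1.01 to 1.11). *Pgam1* was at 178 and 119 CPM, a ratio of 0.667 (0.596 to 0.747) that lay just inside the downward limit. *Gpi1* was at 0.887 (0.821 to 0.958) and *Pkm* at 0.936 (0.882 to 0.994). *Slc2a1* was at 1.40 (1.01 to 1.94), and *Aldoa*, *Tpi1* and *Pgk1* had intervals that held 1.

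The classes differed in size between the libraries, and that moved with these ratios: non-cycling B cells made up 41.6% of WT and 12.6% of twi cells, neutrophils 16.6% and 4.72%, and effector CD8 T cells 1.65% and 24.9%. With the twi classes weighted by the WT class shares, the ratio of the sum was 0.998, that of *Ldha* 0.932, *Eno1* 1.03, *Pgam1* 0.703 and *Slc2a1* 1.76. The direction of the sum also turned with the total that it was set against, at 1.13 (1.11 to 1.16) without mitochondrial and ribosomal protein genes and 0.970 (0.947 to 0.994) without immunoglobulin genes, *S100a8* and *S100a9*. In the wider list 4 of 47 genes with enough UMIs were higher by 1.5-fold and 12 lower over all cells, beside 11.2% and 15.1% of all genes, with *Hk1* at 2.05 times and *Pfkp* at 1.88 times among the first and the neutrophil genes *Slc16a3* at 0.412 and *Hk3* at 0.251 among the second.

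**Figure D5:**
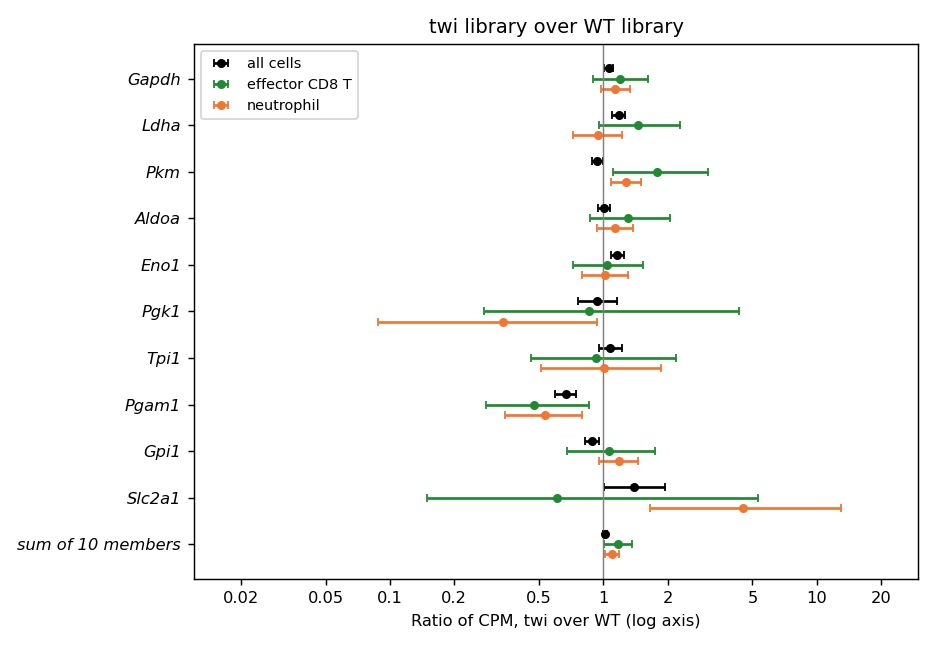
Ratio of CPM in the twi over the WT library (x axis, log scale) for each gene and the sum (y axis), over all cells (black), effector CD8 T cells (green) and neutrophils (orange), with exact 95% counting intervals. *Pgam1* lies left of 1 in all 3 (0.667, 0.474 and 0.534), and the sum lies at 1.02, 1.17 and 1.10. All cells include the cells of both other groups.

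Within classes, the sum lay close between the libraries in the lymphocytes that both held in number. The twi over WT ratio of the sum was 0.967 (0.855 to 1.09) in naive CD8 T cells, 1.02 (0.928 to 1.12) in non-cycling B cells, 0.971 (0.873 to 1.08) in NK cells and 1.04 (0.913 to 1.18) in CD4 T cells, and it was 0.962 (0.863 to 1.07) in monocytes. In T cells of no clear subset it was 1.12 (1.04 to 1.21), with *Aldoa* at 457 against 365 CPM (interval of the ratio 1.02 to 1.55) and *Ldha* at 1.24 (1.01 to 1.51), and 1 of 10 genes, *Pgk1*, past 1.5-fold against 16% of 5367. *Gpi1* was at 0.644 (0.447 to 0.921) in NK cells and at 1.78 (1.09 to 2.99) in CD4 T cells. The T cells were not alike in state. In CD4 T cells the effector list was at 235 CPM in WT and 4230.5 in twi, and the naive list at 3206 and 1900. In T cells of no clear subset the naive list was at 1731 and 711 CPM, the effector list at 8676 and 6882, and the gamma-delta list at 193 and 407. The part of these differences was not tested.

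In effector CD8 T cells the sum was 1.17 times higher in twi (1.01 to 1.36), but the interval held 1 among cells with Y-linked transcripts and no *Xist* (1.03, 0.845 to 1.27, from 32 twi and 10 WT cells), without *Gapdh* (1.16, 0.981 to 1.38) and after thinning to 1000 UMIs per cell (1.22, 0.915 to 1.67). *Pkm* was at 409 CPM in 300 twi cells and 229 CPM in 21 WT cells (1.79 times, 1.11 to 3.09, from 553 and 17 UMIs). *Pgam1* was at 102 against 216 CPM, a ratio of 0.474 (0.282 to 0.852). These were the 1 gene of 9 past 1.5-fold upward and the 1 past it downward, against 30.8% and 18.9% of 5405 genes. The WT cells of this class carried more transcripts of the NK marker list (8 of 8 markers, 1603 against 886 CPM). Of the 21 WT cells 5 had UMIs of a second lineage, against 5 of the 300 twi cells, so leaving them out took an uneven share of the libraries. Their part was not tested beyond leaving them out. Without the second-lineage barcodes the sum was at 1.38 (1.14 to 1.69), *Pkm* at 2.20 (1.15 to 4.84) and *Pgam1* at 0.495 (0.261 to 1.06).

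In neutrophils the sum was 1.10 times higher in twi (1.02 to 1.18), with *Pkm* at 1.28 (1.09 to 1.5) and *Pgam1* at 166 against 311 CPM, a ratio of 0.534 (0.348 to 0.794). All genes tested in this class had a median log2 ratio of 0.0738, and 55.9% of them were above 1. For the members with enough UMIs the median was 0.0394, so the sum was not set apart from the other genes. *Pgk1* was at 22.9 against 67.8 CPM from 4 and 39 UMIs, a ratio of 0.338 (0.0877 to 0.937). *Slc2a1* was at 63.0 against 13.9 CPM (4.53 times, 1.66 to 13) on 11 and 8 UMIs, too few for the minimum of 25. Of the 9 genes with enough UMIs, 0 were higher by 1.5-fold and 2 lower, against 13.3% and 14.4% of 2257. *Pgam1* was lower in both neutrophil stages, at 0.614 (0.377 to 0.957) in those with granule transcripts and 0.360 (0.123 to 0.873) in the others. It was not lower in every class: in monocytes and T cells of no clear subset its ratio was above 1, with intervals that held 1. Over the WT library, 26.8% of *Pgam1* UMIs lay in neutrophils and 18.6% in the mixed cycling group, against 5.09% and 9.82% in twi. The summed UMIs of the 10 genes moved in the same direction, from 23.1% to 5.9% in neutrophils and from 14.5% to 6.33% in the mixed cycling group. Neutrophils held 15.4% of all UMIs in WT and 3.64% in twi, so the lower share there was not particular to *Pgam1*. At WT class shares the *Pgam1* ratio was 0.703, as given above.

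Of the classes compared, C1q macrophages parted most, at 1902 CPM in 19 WT cells and 5181 CPM in 15 twi cells, 2.72 times (2.16 to 3.46). All 6 genes with at least 25 UMIs in the pair were higher in twi by 1.5-fold or more, against 39.2% of the 727 genes tested. *Aldoa* was at 925 against 227 CPM (4.07 times, 2.13 to 8.55), *Pkm* at 783 against 207 CPM (3.79 times, 1.91 to 8.33) and *Gapdh* at 1480.3 against 662 CPM (2.24 times, 1.49 to 3.44). The cells were not alike in other ways: the microglial transcripts *P2ry12* and *Tmem119* were at 5520 and 3411 CPM in WT and at 498 and 1181 CPM in twi. The monocyte marker list was at 5954 CPM in WT (6 of 9 markers seen) and 11984 CPM in twi (9 of 9). A difference in level and a difference in which cells the class held cannot be told apart here. Without the barcodes of a second lineage the ratio was 2.96 (2.26 to 3.93).

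Sex was compared within twi, the library that held both. The sum in 548 cells with *Xist* was 0.95 (0.91 to 0.992) times that in 207 cells with Y-linked transcripts, and none of the 10 genes reached 1.5-fold, while 8.44% of 8235 genes were higher and 11.6% lower by that much. The median log2 ratio was 0.0081 for the 10 genes and -0.0744 for all genes, of which 41.9% were above 1. *Gapdh* (0.892), *Pkm* (0.890) and *Aldoa* (0.857) had intervals below 1. *Pgk1*, the X-linked member, was at 1.14 (0.793 to 1.67). The sets differed in class. Effector CD8 T cells were 190 of the *Xist* cells and 32 of the Y cells, and non-cycling B cells 46 and 32. Among effector CD8 T cells of the same library the ratio of the sum was 0.965 (0.865 to 1.08). Sex and animal cannot be told apart in a pool of 2 to 3 animals.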

How the data were processed

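Cells were loaded on a single-cell 3′ chemistry of version 2, and the authors deposited 1 matrix of raw UMI counts per gene and barcode for each library, made with Cell Ranger 2.1.1 on mm10 according to the submitters' processing notes, with no normalization. The 10 genes and the lists used here were chosen with earlier results of these data known, and the UMI limits of the classes were set after marker distributions were seen.

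Barcodes with over 15% UMIs of mitochondrial genes were removed. Cells were then assigned by summed marker UMIs: T cells needed 2 UMIs of *Cd3* genes, B cells 6, neutrophils 6, monocytes 4, C1q macrophages 6, NK cells 4 and cycling cells 4. CD8 T cells were naive with at least 4 naive-list UMIs and effector with at least 6 effector-list UMIs at 3 times the naive sum. No doublet caller was run. Barcodes passing 2 lineage gates were kept out of the classes, and those with 3 or more UMIs of a second lineage were left out in an alternative. Of the listed markers, 7 were absent from the gene table.

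UMIs were summed per class and library and divided by the UMIs of those cells (CPM). With 1 library per genotype no statistical test was run. Levels have exact Poisson, ratios exact conditional binomial and shares exact Clopper-Pearson intervals at 95%, for counting error only. Genes with at least 25 UMIs over both sides of a ratio were counted against a limit of 1.5-fold. All 10 members were named, and genes of the wider list with at least 100 UMIs. Likeness was Pearson's r of log2(CPM + 10). Ratio intervals were run on simulated Poisson counts without variation between cells or animals, which checks the calculation only. Python 3.11.15, numpy 2.4.6, scipy 1.17.1, pandas 2.3.3 and matplotlib 3.10.9 were used. Gene positions came from GENCODE M21, promoters from RefSeq (GRCm38.p6). Alternatives changed the mitochondrial limit, the total behind CPM, the class limits, the depth per cell and the sexes compared.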

Additional observations from a re-analysis of the deposited data

How the results depend on the processing

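No paired analysis was possible because each genotype gave a pooled library only. Of 95 ratios under alternatives, 67 stayed within the counting interval of the reported ratio, 25 left it and 3 with an interval above 1 came out below 1, and the cause was not tested. Those 3 were the cycling over non-cycling B ratios without *Gapdh* (0.930 in WT, 0.988 in twi) and the WT one without second-lineage barcodes (0.981). Without *Gapdh* cycling over naive CD8 T cells was 1.75. Without second-lineage barcodes twi over WT was 1.07 in all cells and 1.38 in effector CD8 T cells, and cycling over naive CD8 T cells 1.82. Without mitochondrial and ribosomal protein genes in the total, twi over WT was 1.13 in all cells, cycling over naive CD8 T cells 1.76, effector over naive in twi 1.28, and neutrophils over B cells 2.14 and 2.25. Without immunoglobulin genes, *S100a8* and *S100a9* twi over WT was 0.970 and neutrophils over B cells 3.94 and 4.13. As a mean of per-cell CPM, twi over WT was 1.11 and cycling over non-cycling B in WT 1.04. With 1 more marker UMI for each class the latter was 1.57. Thinned to 1000 UMIs per cell, twi over WT was 1.10, effector over naive in WT 0.975 and neutrophils over B cells in WT 2.43. With cells of Y transcript and no *Xist* alone, twi over WT was 0.974, cycling over non-cycling B in twi 1.01, cycling over naive CD8 T cells 3.03, effector over naive in WT 1.46 and neutrophils over B cells in WT 2.87. Against non-cycling B cells with *Vpreb1* or *Igll1*, chosen after the data were seen, cycling B cells were at 1.54 and 1.83. The number of genes past the fold in all cells was 0, and it was 1 without mitochondrial and ribosomal genes, without immunoglobulin genes and *S100a8*, as a mean per cell and in Y cells, and 2 at the lower fold limit tried. Classes of 7 to 28 cells limit what depth allows, and nothing here measures the variation between animals.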

Other observations

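Some genes of the wider list marked classes that the 10 did not single out. C1q macrophages held *Hk2*, a hexokinase, at 620.3 CPM in WT and 342 CPM in twi, and *Ldhb*, the other lactate dehydrogenase subunit, at 476 and 399 CPM, while *Ldhb* did not pass 77.1 CPM in the other classes plotted. *P4ha1*, a collagen prolyl hydroxylase subunit and known hypoxia target, was at 414 CPM in WT and 42.7 CPM in twi C1q macrophages, from 20 and 3 UMIs. *Eno3*, the muscle enolase, was at 185 and 216 CPM in monocytes against at most 37.8 CPM elsewhere. *Pdk1*, a kinase that inhibits pyruvate dehydrogenase, was at 90.3 and 68.7 CPM in naive CD8 T cells and at 26.9 and 44.4 CPM in effector CD8 T cells. The WT effector value lay below 40.4 CPM, the level that 3 UMIs give in those 21 cells. *Mif*, a cytokine gene of the hypoxia list, was at 649.8 CPM in twi cycling CD8 T cells and at 20.9 and 51.5 CPM in neutrophils. These values are single libraries' levels, and classes of C1q macrophages had 19 and 15 cells.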
